A study of Mus musculus with 4 samples.

Results

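TCF7, LEF1, IL7R, KLF2 and S1PR1 are 5 genes used to describe naive and memory T cells, and KLF2 and S1PR1 among them govern where those cells travel. They are 5 of the 36601 genes in the feature lists and were chosen by their symbols, each of which matched a single entry. Their raw UMI counts were followed through the human CD45+ cells of MDA-MB-231 tumors, and cells were placed in classes by other marker genes, so that none of the 5 took part in defining a class.

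TCF7 (the protein TCF-1) and LEF1 are related DNA-binding factors that keep T cells in a naive or stem-like state and also serve early NK cell development. IL7R is the alpha chain of the receptor for interleukin 7, the survival cytokine of naive and memory T cells, and it pairs with CRLF2 instead of IL2RG to form the receptor for TSLP on dendritic cells. KLF2 is a zinc-finger factor of quiescent lymphocytes that drives S1PR1, the receptor for sphingosine 1-phosphate with which lymphocytes follow this lipid out of tissue into lymph and blood.

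The cells came from MISTRG mice, which carry human versions of IL-3, GM-CSF and M-CSF, the cytokines of myeloid cells, and were irradiated as pups and engrafted with human CD34+ cells from fetal liver. Tumors were grown from MDA-MB-231, a human triple-negative breast carcinoma line, in the mammary fat pad, so tumor and immune cells were both human while the host tissue was murine, and reads were aligned to the human genome. Of 14 mice, 7 were untreated and 7 drank water with the drug maraviroc for 10 days from day 21, and all tumors were taken on day 31. The treatment of each mouse was read from its hashtag name, with 4 untreated and 3 maraviroc mice in reaction 1 and 3 untreated and 4 maraviroc mice in reaction 2.

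The reactions differed in depth. Reaction 1 held 29120 barcodes and 133089612 UMIs, and reaction 2 held 13582 barcodes and 175447534 UMIs, with medians of 2752 and 10742 UMIs per barcode after filtering. The filters (above 600 and up to 6000 genes per barcode, with mitochondrial UMIs under 12.5%) left 37806 of 42702 barcodes. Hashtags marked 10174 of the 27645 filtered barcodes of reaction 1 and 1961 of the 10161 of reaction 2 as doublets, and 136 barcode sequences occurred in both reactions. The gates placed 28.6% of the cells of reaction 1 and 63.4% of those of reaction 2 in a class, and 1200 and 2408 cells were T cells. Levels per reaction, shares of cells and genes read together used every filtered cell of a class, hashtag doublets included. Levels per mouse and all tests used hashtag singlets alone and mice with at least 10 cells of the class.

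T cells were split by UMIs of CD8A and CD8B, FOXP3 and CXCL13 into CD8 T cells (301 cells in reaction 1 and 705 in reaction 2), FOXP3-positive T cells (220 and 698), CXCL13-positive T cells (76 and 167) and T cells without any UMI of these genes, called other T cells (399 and 584). The other T cells were the shallowest of these classes, with a median of 2385 and 5801.5 UMIs per cell, and how many of them express these genes below detection was not tested. Their CD4 stood at 86.6 and 141.4 CPM (the usual scaling of a gene's UMIs to the total UMIs of its class) in reactions 1 and 2, and CD40LG at 54.3 and 92.8. The NK cell list summed to 3667 and 1165 CPM in the other T cells, against 20159 and 17782 in NK cells and 5001 and 5294 in CD8 T cells, and GNLY alone gave 2436 and 788.8 of it. Other T cells of reaction 1 thus carried more NK cell transcripts than those of reaction 2, and the part of these transcripts in the levels below was not tested.

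The other T cells held the highest level of TCF7 and LEF1 among all classes in both reactions, and within T cells they also held the highest IL7R, KLF2 and S1PR1. In sums over cells, fewer cells that use a gene and less RNA of it per cell cannot be told apart. Of the 5 genes, 5 were lower in CD8 T cells than in other T cells of the same mice, 5 were lower in FOXP3-positive T cells and 4 were lower in CXCL13-positive T cells, in edgeR's quasi-likelihood test with the mouse as a block and Benjamini-Hochberg adjustment over 7696 genes. The background shares were 28.9% of all tested genes called (15% lower) for CD8 T cells, 24.2% (11.8% lower) for FOXP3-positive T cells and 21.7% (11.1% lower) for CXCL13-positive T cells.

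**Figure D1:**
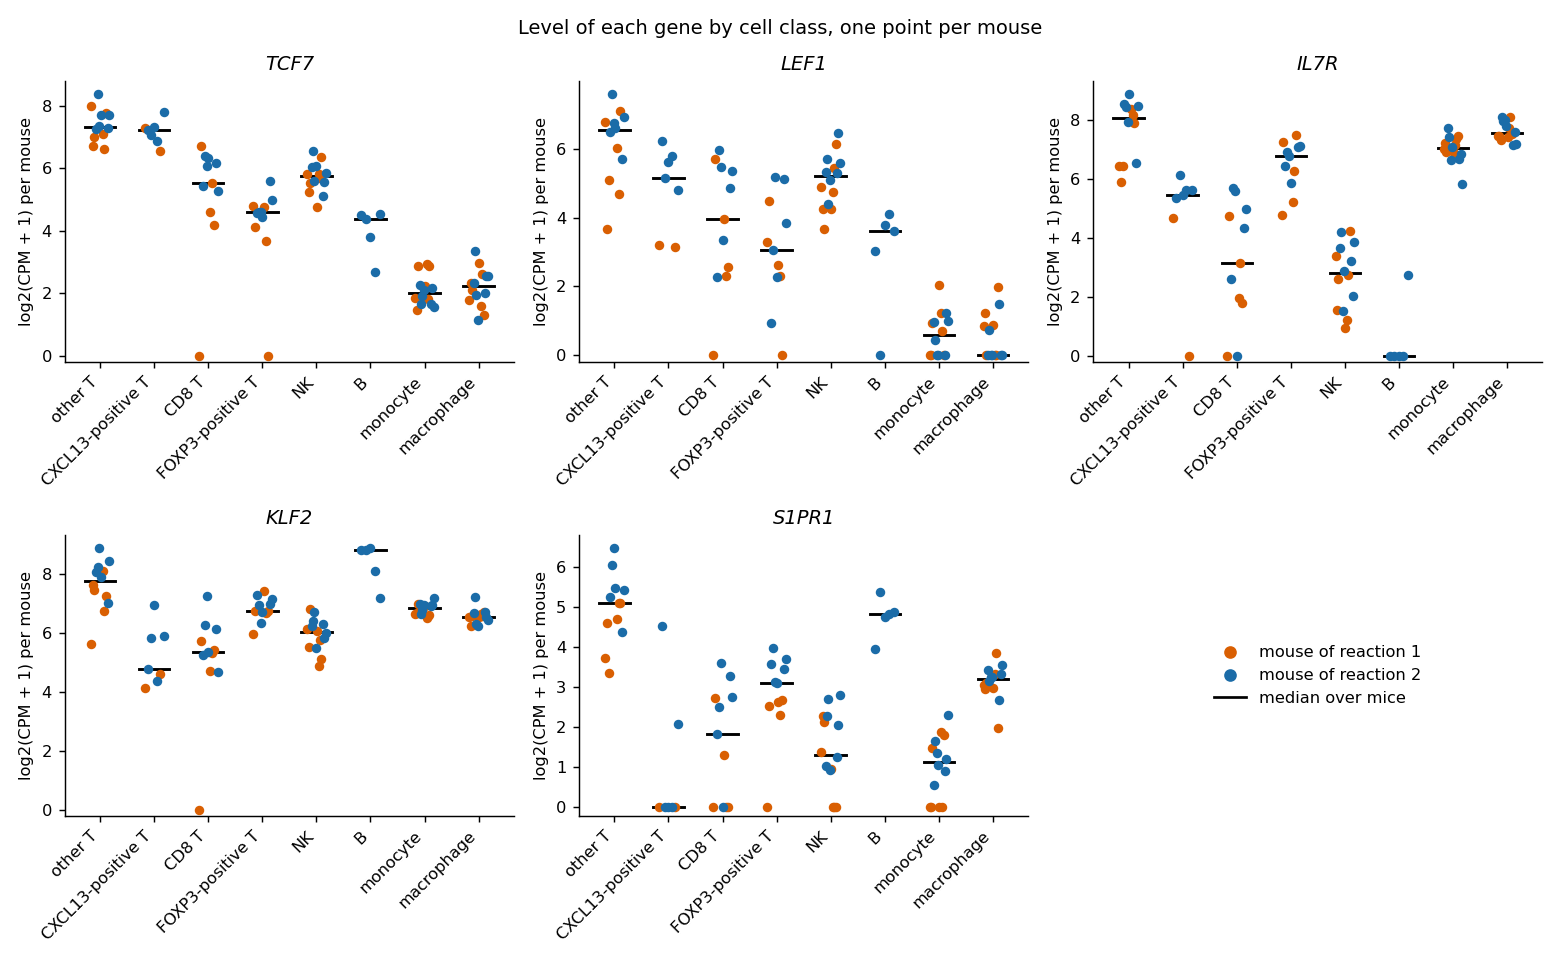
Level of each gene in each mouse as log2(CPM + 1) on the vertical axis, by cell class on the horizontal axis, with 1 point per mouse with at least 10 cells of the class, colored by reaction, and the median as a line. TCF7 sits at 98.8 CPM or above in every mouse in the other T cells, while IL7R is high in other T cells, macrophages and monocytes and near 0 in B cells.

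TCF7 was high in other and CXCL13-positive T cells, in between in CD8 T cells and lowest in FOXP3-positive T cells. In other T cells its level was 132 CPM in reaction 1 (95% exact Poisson interval 114 to 152) and 195 (181 to 209) in reaction 2, and 93.0 (67.0 to 126) and 172 (154 to 193) in CXCL13-positive T cells. CD8 T cells stood at 45.7 (37.7 to 54.9) and 69.6 (63.0 to 76.6) and FOXP3-positive T cells at 14.1 (8.81 to 21.3) and 29.8 (25.4 to 34.7). These intervals cover counting error only.

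Across mice, TCF7 in other T cells ran from 98.8 to 333 CPM with a median of 160.5 (181 ± 68.2, SD, n = 12). FOXP3-positive T cells ran from 0 to 47.7 with a median of 23.4 (22.7 ± 11.8, SD, n = 11). No mouse overlapped between these classes, which was not counted over all genes, and the log2 difference was -2.98 (SE 0.24, edgeR adjusted p = 3.29e-12). In CD8 T cells the mice ran from 0 to 104 CPM with a median of 45.2 (52.0 ± 31.9, SD, n = 11). Their range touched that of other T cells only at its top, the gene was higher in other T cells in 11 of 11 mice, and the log2 difference was -1.80 (SE 0.21, edgeR adjusted p = 1.42e-08).

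CXCL13 is a B cell chemokine made by follicular helper T cells and by dysfunctional T cells of tumors, and the T cells positive for it stood near the other T cells in TCF7. Their mice ran from 93.9 to 224 CPM with a median of 150.2 (148 ± 41.0, SD, n = 7), 6 of 7 inside the range of other T cells. The log2 difference from other T cells was -0.35 (SE 0.24, edgeR adjusted p = 0.32), and 5 of 7 mice were higher in other T cells, so the order of these neighbours did not hold beyond their spread. TCF7 was lower in CD8 T cells than in CXCL13-positive T cells by a log2 difference of -1.45 (SE 0.26, edgeR adjusted p = 4.62e-05) in 7 of 7 mice, where 19.2% of all genes were called (8.61% higher and 10.6% lower in CD8 T cells). Between CD8 and FOXP3-positive T cells, where 38.9% of genes were called (19.3% higher and 19.6% lower in CD8 T cells), TCF7 was higher in CD8 T cells (log2 difference 1.18, SE 0.26, edgeR adjusted p = 0.000330) in 9 of 11 mice.

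LEF1 was lower in CXCL13-positive T cells than in other T cells, whereas the difference in TCF7 did not pass the test. In other T cells it stood at 52.9 CPM (41.7 to 66.1) and 97.9 (88.1 to 108) in reactions 1 and 2, and at 6.64 (1.37 to 19.4, from 3 UMIs) and 48.1 CPM in CXCL13-positive T cells. Other T cells were higher in 7 of 7 mice, with a log2 difference of -1.24 (SE 0.44, edgeR adjusted p = 0.0367), a call that was lost with DESeq2, without the block and in either reaction alone. Across mice LEF1 ran from 11.6 to 194 CPM in other T cells with a median of 94.1 (87.2 ± 52.7, SD, n = 12), a spread wider than that of TCF7 only relative to its mean.

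In CD8 T cells LEF1 was 17.9 and 33.3 CPM and in FOXP3-positive T cells 7.67 and 12.5. The log2 differences from other T cells were -1.86 (SE 0.34, edgeR adjusted p = 4.18e-05) in 10 of 11 mice and -2.96 (SE 0.39, edgeR adjusted p = 1.57e-07) in 11 of 11 mice. CD8 T cells were above FOXP3-positive T cells by 1.11 (SE 0.44, edgeR adjusted p = 0.0424) in 8 of 11 mice, which did not pass with DESeq2, without the block or in either reaction alone.

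Both factors were also read in NK cells. TCF7 stood there at 47.8 CPM (42.5 to 53.5) and 60.6 (54.5 to 67.1), next to the level of CD8 T cells, and LEF1 at 30.1 and 50.5, above CD8 T cells in both reactions. The 6 T cell markers summed to 985 and 782 CPM in NK cells against 3649 and 2851 in CD8 T cells, and their part in these levels was not tested. Against all T cells of the same mice, where 34.1% of 11403 genes were called (17.6% higher and 16.5% lower), TCF7 was lower in NK cells (log2 difference -0.53, SE 0.13, edgeR adjusted p = 0.00174) in 8 of 12 mice, and the call did not hold in reaction 1 alone (-0.37, edgeR adjusted p = 0.267). LEF1 was not separated from T cells, with a log2 difference of 0.05 (SE 0.22, edgeR adjusted p = 0.897) and 6 of 12 mice on either side.

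Outside T and NK cells both factors were low, as they were in FOXP3-positive T cells. B cells had TCF7 at 13.3 (3 UMIs) and 18.9 CPM and LEF1 at 17.7 (4 UMIs) and 15.7. FOXP3-positive T cells had TCF7 at 14.1 and 29.8 and LEF1 at 7.67 and 12.5, so in LEF1 B cells were not below them in these sums. Within mice, B cells were higher than FOXP3-positive T cells in 0 of 5 for TCF7 and 2 of 5 for LEF1. The log2 differences of B cells from all T cells were -2.42 (SE 0.42, edgeR adjusted p = 9.73e-06) for TCF7 and -1.90 (SE 0.72, edgeR adjusted p = 0.0361) for LEF1. The tests of B cells rest on the 5 mice of reaction 2 with enough of them, 1 untreated and 4 maraviroc. There 35% of genes were called (14.5% higher and 20.5% lower). The LEF1 call was lost when untreated mouse 1, maraviroc mouse 1 or maraviroc mouse 2 was left out, and leaving out each of the 5 in turn gave -2.36 to -1.48. Monocytes had TCF7 at 5.76 and 3.17 CPM and LEF1 at 2.58 and 0.475, and LEF1 had no UMI in CLEC9A-positive dendritic cells, plasmacytoid dendritic cells and mast cells of either reaction. The T cell marker list itself summed to 61 and 10 CPM in monocytes, which the gate held to at most 1 such UMI per cell.

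IL7R followed another map. Among lymphocytes it was high in other T cells, at 185 CPM (163 to 208) and 294 (277 to 312), and in FOXP3-positive T cells, at 122 (105 to 141) and 103 (94.7 to 112). CD8 T cells stood at 22.3 and 29.3, CXCL13-positive T cells at 13.3 and 47.6, NK cells at 11.3 and 10.3 and B cells at 4.43 (1 UMI) and 5.24 (5 UMIs). With hashtag singlets alone, CD8 T cells of reaction 1 stood at 10.3, NK cells of reaction 1 at 4.71 and B cells of reaction 2 at 1.34. Its highest level among all classes was in LAMP3-positive dendritic cells, the mature migratory form, at 373 (314 to 439) and 398 (366 to 433), from 44 and 82 cells. Dendritic cells and mast cells were read in sums over cells alone, not per mouse, and no test covered them.

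**Figure D2:**
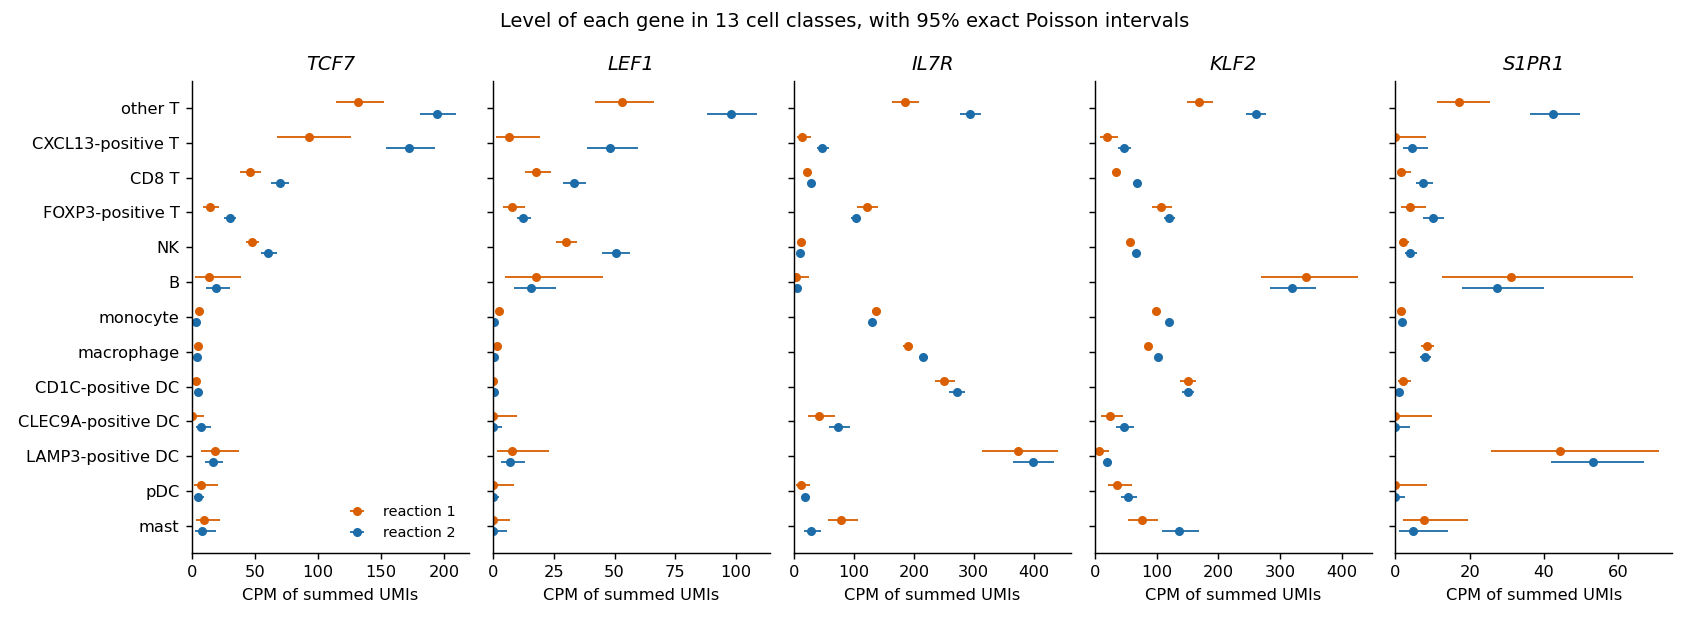
CPM of each gene on the horizontal axis in every cell class on the vertical axis, by reaction, with 95% exact Poisson intervals as error bars. The plot shows IL7R at 373 and 398 CPM in LAMP3-positive dendritic cells and KLF2 at 341 and 319 in B cells, while TCF7 and LEF1 are highest in other T cells.

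Within T cells, the IL7R difference between other and CD8 T cells was the widest of the 5 genes. Other T cells ran from 58.2 to 468 CPM across mice with a median of 266.6 (247 ± 137, SD, n = 12), and CD8 T cells from 0 to 50.3 with a median of 7.87. No mouse overlapped, which was not counted over all genes, and the log2 difference was -3.89 (SE 0.33, edgeR adjusted p = 1.77e-11). CXCL13-positive T cells ran from 0 to 70 CPM with a median of 43.0, and other T cells were higher in 7 of 7 mice (log2 difference -2.64, SE 0.42, edgeR adjusted p = 1.28e-05).

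FOXP3-positive T cells, the regulatory class, in which a low IL7R is often used as a sorting mark, lay in between. Their mice ran from 26.5 to 179.5 CPM with a median of 107, overlapping the other T cells, with 9 of 11 mice lower (log2 difference -1.37, SE 0.28, edgeR adjusted p = 0.000206). They were above CD8 T cells in 11 of 11 mice, the log2 difference of CD8 from FOXP3-positive T cells being -2.52 (SE 0.35, edgeR adjusted p = 1.92e-07).

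Macrophages, monocytes and CD1C-positive dendritic cells carried more IL7R than all T cells, which stood at 81.7 and 108.5 CPM. Macrophages stood at 190 (181 to 198) and 215 CPM (208 to 223), monocytes at 138 and 131 and CD1C-positive dendritic cells at 251 and 272, and monocytes were below other T cells in both reactions. CLEC9A-positive dendritic cells (42.8 and 74.4), mast cells (79.5 and 28.9) and plasmacytoid dendritic cells (11.5 and 18.1) were at or below the level of all T cells. In CD1C-positive dendritic cells the macrophage list summed to 3300 and 2870 CPM and the monocyte list to 5422 and 5520. The part of these transcripts in the IL7R and KLF2 levels of that class was not tested. Across mice, macrophages ran from 140 to 272 with a median of 188 and monocytes from 56.0 to 212 with a median of 131. Monocytes were above all T cells by a log2 difference of 0.87 (SE 0.15, edgeR adjusted p = 9.77e-07) in 9 of 12 mice, in a comparison in which 79.9% of all genes were called, 37.5% higher and 42.4% lower in monocytes.

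The share of cells with an IL7R UMI was 37.8% and 70.2% of macrophages in reactions 1 and 2, and 28.1% and 28.7% after each cell was thinned to 2000 UMIs. NK cells, which served as the low reference, had 3.40% and 3.78%, and 1.09% and 1.67% when thinned, from median depths of 4171 and 7815 UMIs against 2558.5 and 12944 in macrophages. Monocytes had 18.2% and 16.1% when thinned. Other T cells had 16.5% and 40.6%, and 18.7% and 26.6% when thinned. In reaction 2 the order of macrophages and other T cells by share was the reverse of their order by CPM, so no order was read from these shares.

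NK cells were far below T cells in IL7R, with mice from 0.945 to 18 CPM and a median of 6.03, and a log2 difference from all T cells of -3.73 (SE 0.25, edgeR adjusted p = 6.72e-16). Leaving out barcodes that were not hashtag singlets lowered the NK level of reaction 1 from 11.3 to 4.71 CPM. In B cells, 4 of 5 mice had no IL7R UMI and the fitted difference of -6.07 (SE 0.92, edgeR adjusted p = 1.03e-06) rests on the prior count of the fit, so it gives no size.

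CRLF2, the TSLP receptor chain that pairs with IL7R, was read at 67.8 and 114.5 CPM in LAMP3-positive dendritic cells, 70.1 and 160.4 in mast cells and 11 and 9.2 in CD1C-positive dendritic cells. IL7, the ligand, stood at 44.1 and 96.2 CPM in FOXP3-positive T cells and 19.9 and 40.6 in other T cells. The FOXP3-positive T cells thus held both IL7R and the most IL7 of the T cell classes.

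KLF2 was led by B cells. It stood there at 341 CPM (269 to 426) and 319 (284 to 357), followed by other T cells at 169 and 261, CD1C-positive dendritic cells at 151 in both reactions, FOXP3-positive T cells at 108 and 121 and monocytes at 99.7 and 121. CD8 T cells were at 34.2 and 68.1 and CXCL13-positive T cells at 19.9 and 48.1. LAMP3-positive dendritic cells, the highest in IL7R, were lowest in KLF2 at 7.83 and 19.4, from 3 and 27 UMIs.

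The 5 mice with enough B cells, 1 untreated and 4 maraviroc, had 146, 273, 450, 454 and 475 CPM of KLF2, the lowest in the untreated mouse. Of these, 5 of 5 were above their own T cells, with a log2 difference of 1.51 (SE 0.21, edgeR adjusted p = 2.97e-07). The median difference over all genes tested was -0.20 in this comparison with edgeR and -0.085 with DESeq2, and the KLF2 difference is to be read against these.

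Within T cells, KLF2 in other T cells ran from 48.9 to 478 CPM with a median of 217 (227 ± 118, SD, n = 12). CXCL13-positive T cells ran from 16.5 to 124 with a median of 26.5 and were below the other T cells in 7 of 7 mice (log2 difference -2.45, SE 0.32, edgeR adjusted p = 5.63e-07). CD8 T cells ran from 0 to 152 with a median of 40.2 and were lower in 11 of 11 mice (log2 difference -2.29, SE 0.23, edgeR adjusted p = 5.99e-10). FOXP3-positive T cells ran from 61.9 to 172 with a median of 107 and overlapped other T cells most, although 11 of 11 mice were lower (log2 difference -1.0, SE 0.21, edgeR adjusted p = 0.000386).

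FOXP3-positive T cells were above CD8 T cells in KLF2 in 10 of 11 mice, where the log2 difference of CD8 from FOXP3-positive T cells was -1.29 (SE 0.24, edgeR adjusted p = 2.36e-05). KLF2 was higher in CD8 than in CXCL13-positive T cells in 7 of 7 mice, but the fitted log2 difference of 0.16 (SE 0.36, edgeR adjusted p = 0.827) did not pass the test. NK cells, at 56.5 and 67.6 CPM, were below all T cells by a log2 difference of -0.69 (SE 0.14, edgeR adjusted p = 0.000185). Monocytes were above all T cells by 0.47 (SE 0.13, edgeR adjusted p = 0.000913) in 8 of 12 mice, and this call did not hold in reaction 2 alone, where the difference was 0.24. Summed over cells, all T cells had KLF2 at 81.6 and 122 CPM against 99.7 and 121 in monocytes, so monocytes were not above them in reaction 2. The median difference over all genes in this comparison was -0.078, with 79.9% of genes called.

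S1PR1 was the sparsest of the 5 genes. In sums over cells it was highest in LAMP3-positive dendritic cells, at 44.3 CPM (25.8 to 71.0) and 53.3 (41.8 to 66.9). These came from 17 and 74 UMIs in 44 and 82 cells. Their interval overlapped that of B cells in reaction 1 (12.5 to 63.9) and that of other T cells in reaction 2, and no test was run. Other T cells stood at 17.2 (11.1 to 25.4) and 42.4 (36.1 to 49.5) and B cells at 31 and 27.3. FOXP3-positive T cells had 3.83 and 9.98 CPM, CD8 T cells 1.59 and 7.52 and NK cells 2.07 and 3.87. In the 76 CXCL13-positive T cells of reaction 1 there was no S1PR1 UMI, which allows up to 8.17 CPM by the exact Poisson interval, and reaction 2 had 4.48.

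Across mice S1PR1 in other T cells ran from 9.12 to 87.5 CPM with a median of 33.0 (35.8 ± 22.2, SD, n = 12). CD8 T cells ran from 0 to 11 with a median of 2.55 and 4 mice at 0. Other T cells were higher in 11 of 11 mice, and the log2 difference was -3.01 (SE 0.35, edgeR adjusted p = 1.88e-08). FOXP3-positive T cells ran from 0 to 14.7 with a median of 7.63 and were lower in 11 of 11 mice (log2 difference -2.15, SE 0.33, edgeR adjusted p = 2.13e-06).

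In CXCL13-positive T cells 5 of 7 mice had no S1PR1 UMI and other T cells were higher in 7 of 7 mice, with a fitted log2 difference of -3.24 (SE 0.55, edgeR adjusted p = 3.33e-05) that depends on the prior count. S1PR1 was also lower in NK cells than in all T cells (log2 difference -2.50, SE 0.32, edgeR adjusted p = 2.06e-08) in 12 of 12 mice. The B cell mice had 14.4, 25.7, 27.3, 28.1 and 40.0 CPM, 4 of 5 above their T cells, with a log2 difference of 0.87 (SE 0.42, edgeR adjusted p = 0.104) that did not pass the test.

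**Figure D3:**
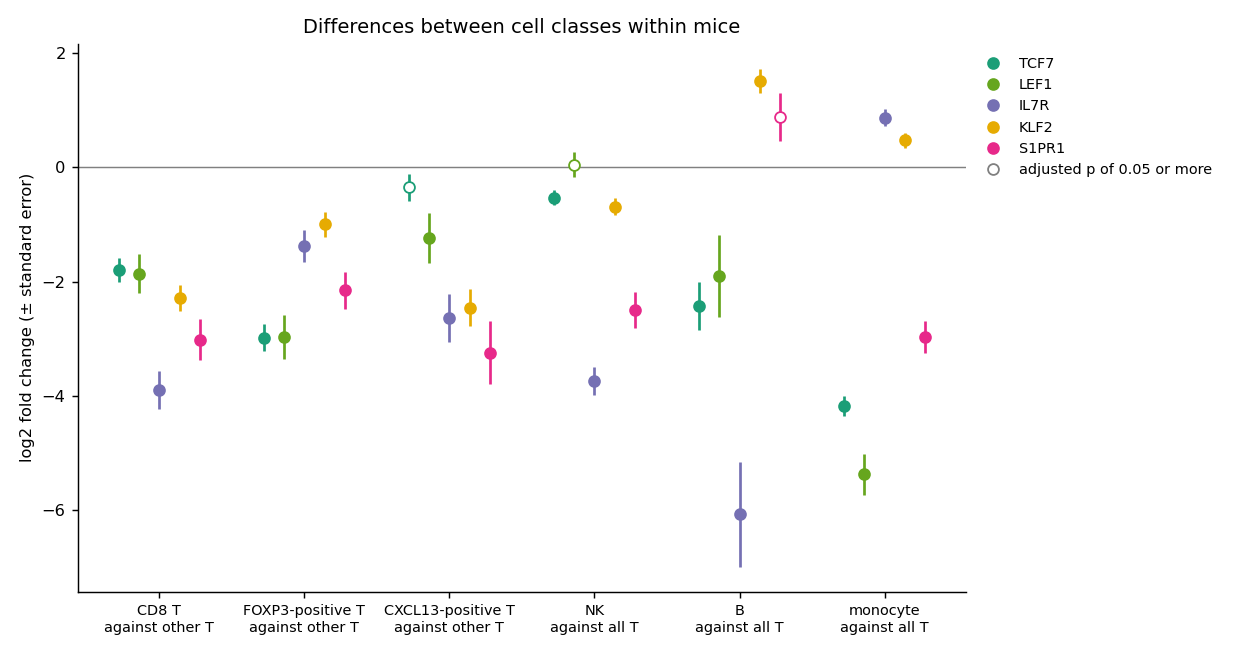
Log2 fold difference of each gene on the vertical axis with its standard error as a bar, for 6 comparisons of cell classes within mice by edgeR on the horizontal axis. Filled circles stand for adjusted p under 0.05 and open circles for the rest. All 5 genes lie below 0 for CD8 and FOXP3-positive T cells against other T cells, TCF7 is the open circle at -0.35 for CXCL13-positive T cells, and KLF2 lies at 1.51 for B cells.

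The genes around the 5 moved with them in part. Of a list of 18 genes of naive and central memory T cells, 15 could be tested within T cells. Against other T cells, 11 were lower and 1 was higher in CD8 T cells, with a median log2 difference of -1.21 against 0.017 over all genes. Of all genes 15% were lower in CD8 T cells. The lower genes were led by the glycerol channel AQP3 (-2.87), the costimulatory receptor CD28 (-2.52) and LTB, which encodes lymphotoxin beta (-2.45), and the higher gene was the adhesion molecule PECAM1 (1.91).

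In FOXP3-positive T cells 8 of the 15 were lower and 5 higher, with a median of -1.01, where 24.2% of all genes were called (11.8% lower). The lower genes were led by the kinase TXK (-3.95), the lymph node homing receptor CCR7 (-3.69) and the repressor BACH2 (-3.14), and the higher ones by FOXO1 (0.93), CD27 (0.82) and AQP3 (0.65). In CXCL13-positive T cells 9 were lower and 0 higher, with a median of -0.88, led by TXK (-3.98), AQP3 (-3.08) and KLF3 (-2.95). There 11.1% of all genes were lower.

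Genes of the IL-7 receptor pathway split by class. Of 12 tested, 9 were lower and 0 higher in CD8 T cells than in other T cells, among them IL7 (-2.52), the feedback inhibitor SOCS3 (-1.94) and the kinase PIM1 (-0.66). Over all genes 15% were lower in CD8 T cells. In FOXP3-positive T cells 0 were lower and 6 higher, led by IL7 (1.25), the feedback inhibitor CISH (0.68) and the survival factor BCL2 (0.57). There 24.2% of all genes were called in either direction. In CXCL13-positive T cells 2 were higher, STAT5A (0.96) and SOCS1 (0.55), and 4 were lower, led by CISH (-1.35). There 21.7% of all genes were called, and the 2 higher genes are too few beside this share to be read as a result.

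Of the other KLF genes, 6 were tested within T cells. Those lower in CD8 T cells were 3, with 0 higher, namely KLF3 (-2.21), KLF6 (-0.48) and KLF12 (-0.45). In FOXP3-positive T cells 5 were lower, led by KLF3 (-1.16), and in CXCL13-positive T cells 1 was, KLF3. Over all genes 15% were lower in CD8, 11.8% in FOXP3-positive and 11.1% in CXCL13-positive T cells. KLF3, a repressor related to KLF2, was therefore lower in each of these classes, as KLF2 was.

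Of the sphingosine 1-phosphate genes, 7 were tested within T cells. Against other T cells, 1 was higher and 2 were lower in CD8 T cells, in FOXP3-positive T cells 2 and 2, and in CXCL13-positive T cells 0 and 2. With 7 genes and 28.9%, 24.2% and 21.7% of all genes called, these counts give no result for the list. The receptor S1PR4 was lower in CD8 T cells (-0.62) and CXCL13-positive T cells (-0.93), and CD69, which binds S1PR1 and removes it from the cell surface, was lower in CD8 (-0.42), FOXP3-positive (-1.35) and CXCL13-positive T cells (-1.14). S1PR1 and CD69 transcripts were thus both highest in other T cells in these comparisons. The kinase GRK2, which desensitizes the receptor, was higher in CD8 T cells (0.34) and lower in FOXP3-positive T cells (-0.37).

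Partners and targets of TCF7 and LEF1 gave 7 tested genes. Of these, 2 were higher and 2 lower in CD8 T cells, in FOXP3-positive T cells 2 and 2 and in CXCL13-positive T cells 1 and 2. These counts, too, are small beside the shares over all genes and give no result for the list. ID3 (1.54) and MYB (1.21) were higher and the corepressors TLE4 (-0.55) and TLE5 (-0.54) lower in CD8 T cells. CXCL13-positive T cells also had higher MYB (1.84) and lower TLE4 (-1.03) and TLE5 (-0.71), and FOXP3-positive T cells had higher SOX4 (1.57) and ID3 (0.91) and lower TLE3 (-0.82) and TLE4 (-0.78).

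A list of 16 tissue residency and activation genes went the other way in CD8 T cells, where 9 were higher and 3 lower with a median of 0.95. ITGA1 (2.37), GZMB (2.36) and ITGAE (2.21), an integrin that binds epithelium, were the leading ones. FOXP3-positive T cells had 7 higher, led by TNFRSF9 (1.64), and 5 lower, led by ITGA1 (-4.53). Over all genes 28.9% were called in CD8 and 24.2% in FOXP3-positive T cells, in either direction. CXCL13-positive T cells had 3 higher, ENTPD1 (0.92), ITGAE (0.91) and TOX (0.60), and 2 lower, where 21.7% of all genes were called.

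Against all T cells, NK cells had 12 of 18 testable naive genes lower and 4 higher, with CD28 at -5.08 and TXK at 3.84. Over all genes 16.5% were lower and 17.6% higher in NK cells, and 20.5% and 14.5% in B cells. B cells had 7 lower and 4 higher, among them BACH2 (2.51), FOXP1 (2.44) and CCR7 (1.66), and of 10 KLF genes KLF7 (1.22) alone passed the test. Monocytes, where 37.5% of all genes were higher and 42.4% lower, had 8 of the 10 KLF genes higher, led by KLF4 (5.29), a factor of monocyte differentiation, and 2 lower, KLF12 (-3.64) and KLF13 (-0.30), and TCF7L2, a relative of TCF7 and LEF1, was higher there by 6.46.

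Within single barcodes, hashtag doublets included, the 5 genes were rarely read together. After thinning to 2000 UMIs, 225 other T cells of reaction 1 and 561 of reaction 2 were deep enough, and 40.0% and 57.9% of them had a UMI of at least 1 of the 5 genes, against 16.3% and 27.1% of CD8 T cells. At least 2 genes were read in 14.7% and 28.5% and at least 3 in 5.33% and 10.5%. All 5 were read in 0 cells and 2 cells. Without thinning, TCF7 or LEF1 was read in 87 of 399 other T cells (21.8%) in reaction 1 and in 285 of 584 (48.8%) in reaction 2.

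In other T cells of both reactions, each of the 5 genes was read more often in cells with a UMI of another of the 5 than in cells without. KLF2 is given here as the example, so the link is not particular to it. In thinned cells of reaction 2, S1PR1 was found in 14.4% of the 181 cells with a KLF2 UMI and in 4.21% of those without. TCF7 was found in 33.1% of the cells with a KLF2 UMI and 16.6% of those without. In reaction 1, from 39 cells with a KLF2 UMI, the shares were 5.13% and 1.08% for S1PR1 and 30.8% and 12.9% for TCF7. For LEF1 they were 20.5% and 3.76% in reaction 1 and 21.5% and 7.89% in reaction 2. For IL7R they were 41.0% and 14.0% in reaction 1 and 32.0% and 23.9% in reaction 2. S1PR1 went the other way in CD8 T cells of reaction 1 (0% and 0.365%) and NK cells of reaction 2 (0% and 0.353%). These shares rest on 1 and 2 cells with an S1PR1 UMI. It went the same way in reaction 2 in CD8 (5.95% and 0.971%), FOXP3-positive (5.17% and 0.699%) and CXCL13-positive T cells (13.3% and 0.662%). NK cells of reaction 1 also did (1.20% and 0.406%). FOXP3-positive and CXCL13-positive T cells of reaction 1 had no S1PR1 UMI when thinned. These shares are descriptions of cells from a few mice, and cells were not used as replicates.

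Thinning lowered the shares of TCF7, LEF1, S1PR1 and KLF2 in other T cells. TCF7 was read in 18.8% and 42.3% of other T cells, and in 16.0% and 21.9% at 2000 UMIs, against 1.21% and 1.04% of macrophages at that depth. LEF1 was read in 9.27% and 25.9%, and in 6.67% and 12.3% when thinned, against 0.286% and 0% of macrophages. S1PR1 was read in 4.26% and 17.1%, and in 1.78% and 7.49% when thinned. Thinned macrophages had 1.07% and 1.23%, and thinned monocytes 0.32% and 0.398%. In reaction 1 the thinned S1PR1 share of other T cells rested on 4 of 225 cells. Its exact interval, 0.486% to 4.49%, included the share of macrophages. In reaction 2 the interval, 5.45% to 9.99%, lay above the share of macrophages. KLF2 was read in 18.5% and 46.4% of other T cells and in 57.8% and 67.4% of B cells, and in 17.3% and 32.3% and in 30.6% and 45% when thinned.

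Other T cells were also divided by a UMI of MKI67, TOP2A, CDK1 or CCNB1, genes of dividing cells, which gave 136 and 263 cells in reaction 1 and 139 and 445 in reaction 2. IL7R was 49.0 CPM with and 272 without in reaction 1 and 160 and 356 in reaction 2, and it was higher in the cells with the UMI in 0 of 9 mice. KLF2 was 138 and 189, and 187 and 294, and TCF7 92.8 and 157, and 190 and 197, with 4 of 9 mice higher with the UMI for each. In other T cells TCF7 and KLF2 thus had mice on either side, whereas IL7R did not. LEF1 was 24.5 and 71.2, and 60.0 and 115 CPM, higher with the UMI in 3 of 9 mice. S1PR1 was 8.75 and 22.6, and 27.9 and 49.1 CPM, higher with the UMI in 2 of 9 mice. The contrast was not general. In all T cells 2 of 12 mice were higher with the UMI for TCF7 and for KLF2, 0 for LEF1 and IL7R and 1 for S1PR1. CD8 T cells gave 1 of 10 mice for TCF7 and S1PR1, 2 for KLF2, 3 for IL7R and 4 for LEF1.

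**Figure D4:**
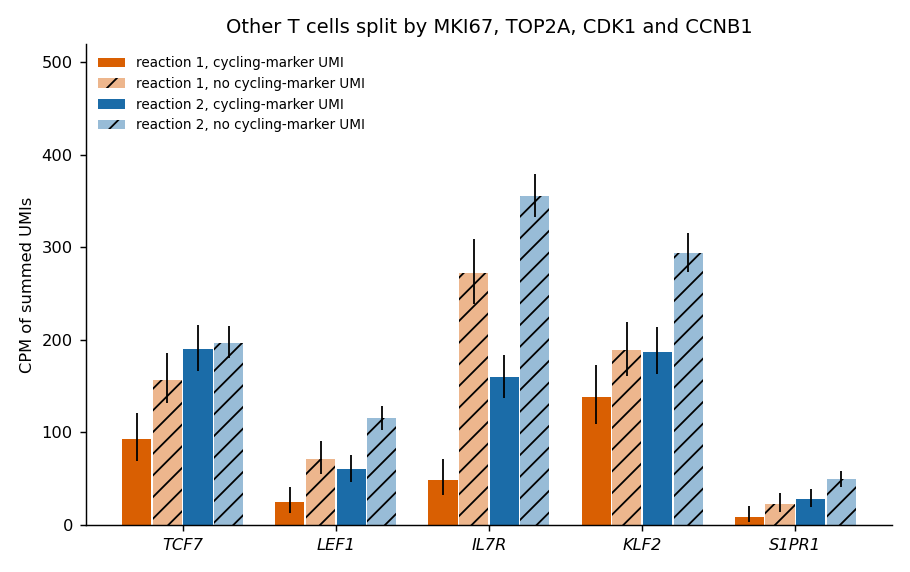
CPM of each gene on the vertical axis in other T cells by reaction, with 95% exact Poisson intervals as error bars, divided by a UMI of MKI67, TOP2A, CDK1 or CCNB1, with solid bars for cells with the UMI and hatched bars for cells without. IL7R is 49.0 against 272 CPM in reaction 1 and 160 against 356 in reaction 2.

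The pattern of each gene over the 7 lymphocyte and monocyte classes in both reactions (14 points) was compared with 9591 other genes by Pearson's r of log2(CPM + 10). The points share libraries and depth, so r is a description. TCF7 was most like TRAT1 (r = 0.96), a T cell receptor adaptor, ANK3 (0.94) and TSPAN2 (0.92). LEF1 was most like CYLD (0.88), IL7R most like PLK3 (0.90), KLF2 most like KLF3 and FHIT (both 0.90) and S1PR1 most like N4BP2L2 and FAM117B (both 0.92).

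Among the 5 genes, r was 0.83 between TCF7 and LEF1 and 0.86 between KLF2 and S1PR1 over the same points. It was 0.50 between LEF1 and S1PR1 and -0.26 between TCF7 and KLF2. IL7R had r between 0.04 and 0.21 with each of the others, so over these points its profile stood apart from both pairs. Macrophages, dendritic cells and mast cells were not among the points. In sums over cells, LAMP3-positive dendritic cells had the highest S1PR1 of all classes (44.3 and 53.3 CPM) with the lowest KLF2 (7.83 and 19.4). CD1C-positive dendritic cells had KLF2 at 151 in both reactions with S1PR1 at 1.98 and 0.987, so the KLF2 and S1PR1 pair did not extend to them.

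Whether maraviroc moved the 5 genes was asked in mice with at least 10 cells of the class. These were 5 untreated and 7 maraviroc mice for all T cells and other T cells, and 5 and 6 for CD8 and FOXP3-positive T cells. CXCL13-positive T cells had only 2 untreated and 5 maraviroc mice, and NK cells and monocytes had 7 and 7. None of the 5 genes passed the test in any class in which it was tested. The low-count filter left S1PR1 untested in CD8 T cells, and LEF1 and S1PR1 in FOXP3-positive T cells. It also left out IL7R and S1PR1 in CXCL13-positive T cells and NK cells, and TCF7, LEF1 and S1PR1 in monocytes. In all T cells, edgeR called 0 of 10540 genes (0%), with 675 at an unadjusted p under 0.05, and DESeq2 called 9. The 2 untreated mice left out, 1 in each reaction, had 5 and 8 T cells.

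In all T cells, TCF7 stood at 38.0, 51.9, 55.3, 79.6 and 105 CPM in the untreated mice and from 36.0 to 122 with a median of 92.8 in the maraviroc mice. The means were 66 ± 26.6 (SD, n = 5) and 85.0 ± 27.3 (SD, n = 7), the groups overlapped, and the log2 difference was 0.37 (SE 0.23, edgeR adjusted p = 0.814). LEF1 stood at 5.70, 25.3, 28.6, 33.5 and 49.1 CPM in untreated mice and from 6 to 73.8 with a median of 40.8 in maraviroc mice. These groups also overlapped, with a log2 difference of 0.60 (SE 0.35, edgeR adjusted p = 0.808).

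In all T cells, S1PR1 stood at 5.70, 6.83, 7.16, 9.39 and 15.5 CPM in the untreated mice and in the maraviroc mice from 3.67 to 26.6 with a median of 13.8. The range of the maraviroc mice spanned that of the untreated mice at both ends, and the log2 difference of 0.70 (SE 0.34, edgeR adjusted p = 0.780) did not pass. It was 0.43 with the reaction as a block, and the mice of the 2 reactions did not overlap in S1PR1, which was not counted over all genes. A two-sided exact permutation test over the 792 regroupings of the mice gave p = 0.439.

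IL7R stood at 50.2, 60.8, 85.3, 114 and 139.6 CPM in untreated mice and from 24 to 165 with a median of 111 in maraviroc mice. KLF2 stood at 64.5, 77.9, 87.8, 108.5 and 138.6 CPM and from 33.0 to 196 with a median of 124. Both groups overlapped fully, with log2 differences of 0.26 (SE 0.30, edgeR adjusted p = 0.935) and 0.31 (SE 0.25, edgeR adjusted p = 0.872). Over 35 exact permutation tests of the 5 genes in 7 classes every adjusted p was 1. The mice allowed 21 regroupings in CXCL13-positive T cells, 462 in CD8 and FOXP3-positive T cells and 792 in all and other T cells. With so few, a single gene that separated the treatments fully could not pass there after adjustment, so these tests decide nothing in T cells.

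**Figure D5:**
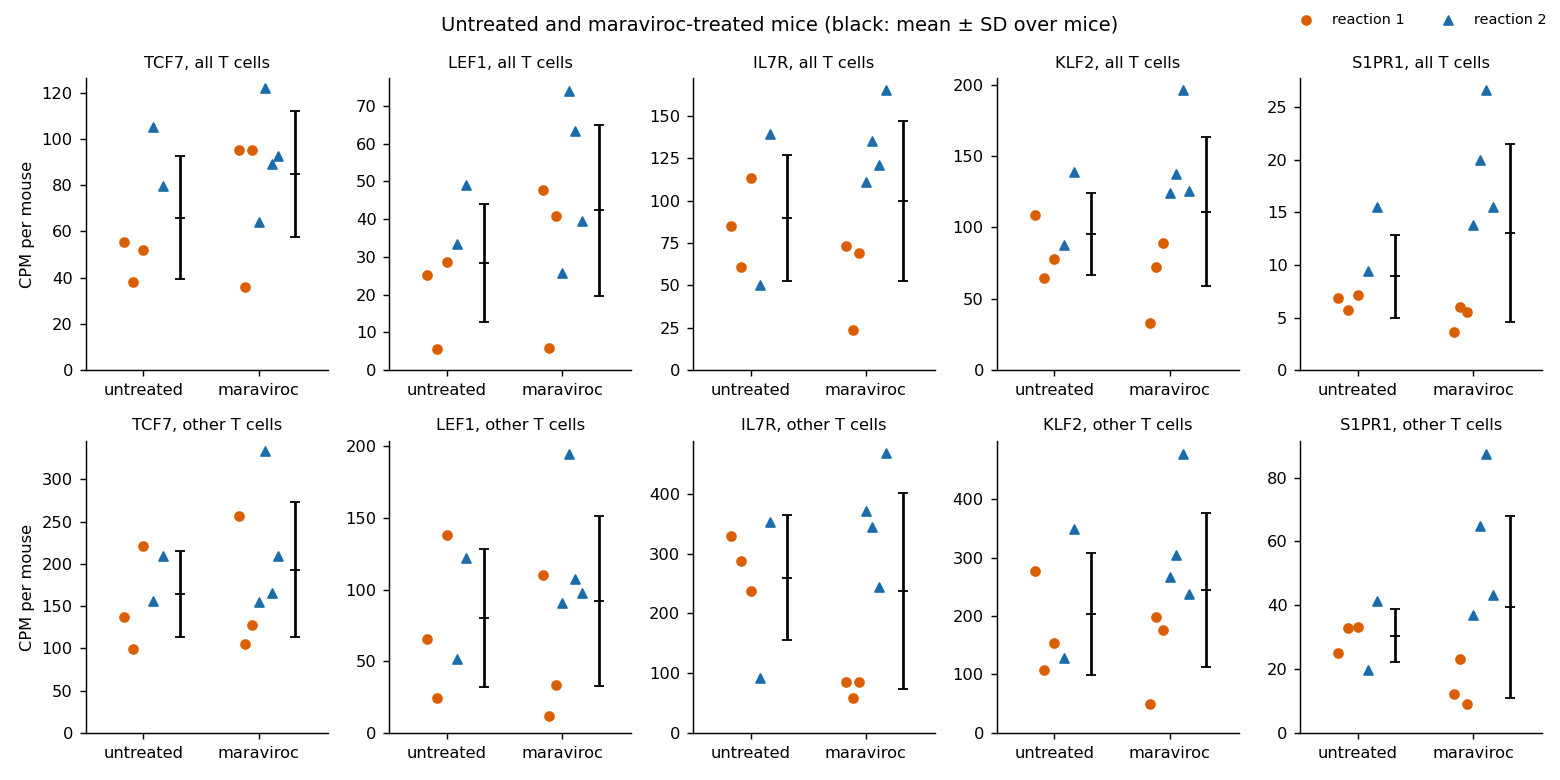
CPM of each gene per mouse on the vertical axis in untreated and maraviroc mice, in all T cells (top) and other T cells (bottom), with circles for reaction 1, triangles for reaction 2 and black marks for the mean ± SD. The groups overlap in every panel, and in other T cells IL7R of the maraviroc mice falls into 58.2 to 85.5 CPM in reaction 1 and 245 to 468 in reaction 2.

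In other T cells the reactions diverged for IL7R, although both treatments overlapped over all mice (log2 difference -0.03, SE 0.39, edgeR adjusted p = 1.0, with 0 of 6094 genes called, 0%, 205 at an unadjusted p under 0.05 and 0 with DESeq2). In reaction 1 the maraviroc mice had 58.2, 85.1 and 85.5 CPM, from 20, 85 and 14 cells, all below the untreated mice at 237, 288 and 330. The log2 difference in reaction 1 alone was -1.86 (SE 0.31, edgeR adjusted p = 0.00748), in a fit that called 3 genes. How many of all genes separated these mice in this way was not counted. In reaction 2 the maraviroc mice ran from 245 to 468 (median 358) and the 2 untreated mice had 91.2 and 353, and the log2 difference was 0.78 (SE 0.40, edgeR adjusted p = 0.934). The difference between the reactions, tested as an added term, was 2.58 (SE 0.59) with an edgeR adjusted p of 0.167, so the contrast in direction did not pass over all genes.

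S1PR1 in other T cells of reaction 1 rested on few UMIs. The maraviroc mice had 9.12, 12.2 and 23.3 CPM, from 3, 1 and 2 UMIs, and the untreated mice 24.9, 32.9 and 33.1, from 8, 4 and 6 UMIs. In reaction 2 the maraviroc mice had 36.9 to 87.5 against 19.8 and 41.4, and the difference between the reactions of 2.20 had an edgeR adjusted p of 0.567.

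In CD8 T cells, where 0.0811% of 7395 genes were called, none of the 4 genes that could be tested passed. Their log2 differences between treatments lay between 0.55 for KLF2 and 0.83 for IL7R (SE 0.59, edgeR adjusted p = 1.0), and S1PR1 was too low to be tested. In NK cells LEF1 had a log2 difference of -0.66 (SE 0.31, edgeR adjusted p = 1.0). In FOXP3-positive T cells, CXCL13-positive T cells, NK cells and monocytes edgeR called 0 genes each, with 297, 124, 191 and 360 at an unadjusted p under 0.05 and 1, 1, 0 and 0 with DESeq2. None of the genes of the 6 lists passed the test for treatment in any class.

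The median over mice of each of the 5 genes was higher in reaction 2 than in reaction 1, in all T cells and in other T cells. For S1PR1 in all T cells the mice of reaction 1 had 3.67 to 7.16 CPM and those of reaction 2 had 9.39 to 26.6, without overlap. How many of all genes had a higher median in reaction 2, or no overlap, was not counted. The reactions also differed in depth and hashtag doublets, so nothing particular to the 5 genes is read from this. Treatment was present in both reactions, and with the reaction as a block the differences between treatments in all T cells were 0.29 for TCF7, 0.48 for LEF1, 0.12 for IL7R, 0.16 for KLF2 and 0.43 for S1PR1, none of which passed the test.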

How the data were processed

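The authors deposited, for each of the 2 reactions, raw UMI counts of 36601 genes and the hashtags, which Cell Ranger 9.0.1 had assigned on GRCh38 per the labels, without normalization. Droplets were prepared with the Chromium 3′ v3.1 kit, which reads polyadenylated ends. Barcodes with above 600 and at most 6000 genes and under 12.5% mitochondrial UMIs were kept. Mice were assigned by HTODemux on centered log-ratios of the hashtag counts (Seurat 5.3.0, R 4.3.3, quantile 0.99).

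Gates on marker UMIs defined the classes. T cells had at least 2 UMIs of CD3D, CD3E, CD3G, TRAC, TRBC1 and TRBC2, which made up over 80% of these and 4 NK cell markers, with under 0.2% myeloid UMIs and at most 1 B cell UMI. CD8 T cells had at least 2 UMIs of CD8A and CD8B and none of FOXP3, FOXP3-positive T cells at least 1 of FOXP3 and none of CD8A and CD8B, and CXCL13-positive T cells at least 2 of CXCL13 and none of these. T cells that met no rule were counted in all T cells alone. NK cells had at least 3 NK cell UMIs, B cells at least 4 B cell UMIs, and monocytes at least 0.5% myeloid UMIs with over 80% of their monocyte and macrophage UMIs from monocyte genes. Macrophages had at least 0.5% myeloid UMIs and 3 UMIs of C1QA, C1QB and C1QC. Under 30% of their monocyte and macrophage UMIs came from monocyte genes. Dendritic cells had at least 2 UMIs of CD1C, CLEC9A, LAMP3 (with CCR7) or LILRA4 (plasmacytoid), without a limit on macrophage or monocyte genes. Mast cells had at least 10 UMIs of TPSAB1 and TPSB2. The thresholds were set after the UMI distributions of the markers had been seen. No doublet caller was run beside the hashtags.

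Counts were summed per mouse and class and tested with edgeR 4.0.16 (TMM, filterByExpr, quasi-likelihood test, Benjamini-Hochberg adjustment, threshold 0.05), in 1 fit for the T cell classes and 1 for the lineages, both with the mouse as a block, and in a fit per class without a block for maraviroc. DESeq2 1.42.0 was the alternative. The SE printed with an edgeR log2 difference was derived from the test, as its absolute value over the square root of the F statistic. Exact permutation tests used SciPy 1.17.1. Intervals are exact at 95% and cover counting error only. The replicate was the mouse, and the number of donors behind the engrafted cells is not given in the sources used here. The fits were tested on simulated data.

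The 5 genes were followed in every comparison in which they passed the low-count filter. From each of 6 gene lists at most 3 genes per direction are named, those with the largest change among those called. The 5 genes, the lists and the tests were chosen with earlier results of these data known. A replicate block (the reaction number), each reaction alone, no low-count filter, other gates, hashtag quantile 0.95 and leaving out mice were tried. No sequences or coordinates are given, since the human genome was not used here. The authors' clusters were not used here.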

Additional observations from a re-analysis of the deposited data

Results flagged for a closer look

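Of 69 groups of mice examined, 3 held a mouse farther from the others than Dixon's 95% critical value allows, where chance gives about 1 in 20. KLF2 in B cells of 1 maraviroc mouse (reaction 2, mouse 4) stood at 273 CPM from 50 UMIs in 27 cells, below the other 3 of its group, whose median with it was 452 CPM. LEF1 in monocytes of 1 untreated mouse (reaction 1, mouse 1) stood at 3.12 CPM from 5 UMIs in 298 cells, against a group median of 0.983 over 7 mice. S1PR1 in CXCL13-positive T cells of 1 maraviroc mouse (reaction 2, mouse 1) stood at 22.1 CPM from 5 UMIs in 19 cells, while the group median over 5 mice was 0.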

How the results depend on the processing

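Between T cell classes, where single mice were not left out and reaction 1 alone gave no fit for S1PR1, the direction of each gene held under DESeq2, the other filter, gate and hashtag quantile, no replicate block and each reaction alone, except LEF1 of CD8 against CXCL13-positive T cells, which turned to 1.40 in reaction 1 alone. LEF1 of NK against all T cells, a difference near 0, turned to -0.011 without the low-count filter, -0.041 without the replicate block and -0.015 in reaction 2 alone. Reaction 1 alone, with fewer mice, called 24 genes for CD8 against CXCL13-positive T cells, 957 for CD8 against FOXP3-positive T cells, 270 for CD8, 9 for CXCL13-positive and 373 for FOXP3-positive against other T cells, and 1511 for NK against all T cells. It also lost calls of CD8 against CXCL13-positive T cells (TCF7 -1.39), CD8 against FOXP3-positive T cells (TCF7 1.6, LEF1 0.99), CD8 against other T cells (LEF1 -1.97), CXCL13-positive against other T cells (IL7R -4.20, LEF1 -3.38), FOXP3-positive against other T cells (IL7R -1.08, KLF2 -0.73) and NK against all T cells (KLF2 -0.35, TCF7 -0.37). Reaction 2 alone lost LEF1 of CD8 against FOXP3-positive T cells (1.12), LEF1 of CXCL13-positive against other T cells (-1.08) and KLF2 of monocytes (0.24). DESeq2 lost the same comparisons of LEF1 (0.91 and -1.39), and so did the fit with no replicate block, that is, without the mouse (1.01 and -1.24), which also lost LEF1 of B cells (-1.89). Without the low-count filter, IL7R of CD8 against CXCL13-positive T cells passed (-1.14). These 3 settings and the gates were otherwise without effect on calls between classes, and the cause of each change was not tested.

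Leaving out each of the 5 mice with B cells, chosen after seeing the data, gave differences from all T cells of -10.1 to -5.56 for IL7R, 1.30 to 1.6 for KLF2, -2.36 to -1.48 for LEF1, 0.57 to 0.99 for S1PR1 and -2.70 to -2.16 for TCF7, with 3531 to 3798 genes called.

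For maraviroc, genes called in CD8 T cells, all T cells, FOXP3-positive, CXCL13-positive, NK and other T cells were 96, 22, 31, 34, 3 and 28 without the low-count filter. DESeq2 called 10, 9, 1 and 1 in the first 4 of these. Reaction 1 alone called 0 in CD8 T cells, 1 in all T cells, 7 in FOXP3-positive and 3 in other T cells, and reaction 2 alone 1 in CD8 T cells and 1 in other T cells. The reaction number as a replicate block gave 3 calls in CD8 T cells and changed no call of the 5 genes. With each mouse left out, 1 to 11 genes were called in CD8 T cells (1 without maraviroc mouse 4 of reaction 2 or untreated mouse 4 of reaction 1, 11 without untreated mouse 3 of reaction 1), 0 to 2 in all T cells and 0 to 1 in FOXP3-positive T cells.

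None of the 5 genes passed for maraviroc under these alternatives except IL7R of other T cells in reaction 1 alone (-1.86). Directions turned in reaction 1 alone for IL7R (-0.51) and KLF2 (-0.18) of all T cells, IL7R of FOXP3-positive T cells (0.042), TCF7 of NK cells (-0.18), IL7R (-0.22) and KLF2 (0.078) of monocytes, and KLF2 (-0.34) and TCF7 (-0.017) of other T cells. They turned in reaction 2 alone for TCF7 of all T cells (-0.0092), LEF1 of CD8 T cells (-0.033) and IL7R of other T cells (0.78), which was also 0.034 without the filter and 0.041 at hashtag quantile 0.95. KLF2 of CXCL13-positive T cells turned to -0.0453 without the filter and -0.18 with the replicate block. Leaving out single mice gave -0.71 to 0.13 for KLF2 of CXCL13-positive T cells, -0.56 to 0.18 for TCF7 of FOXP3-positive T cells, -0.057 to 0.048 for KLF2 of monocytes, and -0.29 to 0.15 for IL7R, -0.044 to 0.54 for LEF1 and -0.0071 to 0.33 for TCF7 of other T cells. In all T cells these ranges were 0.080 to 0.50 for IL7R, 0.14 to 0.49 for KLF2, 0.40 to 0.87 for LEF1, 0.49 to 0.97 for S1PR1 and 0.25 to 0.61 for TCF7. The term for a difference between reactions was also chosen after seeing the data.

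With hashtag singlets alone, levels in reaction 1 moved to 10.3 CPM for IL7R in CD8 T cells, 5.80 for LEF1 in CXCL13-positive T cells, 4.71 for IL7R in NK cells and 1.0 for LEF1 in monocytes, and IL7R in B cells of reaction 2 to 1.34. Thinning to 2000 UMIs moved the shares with a UMI in reaction 2 to 21.9% for TCF7, 12.3% for LEF1, 26.6% for IL7R, 32.3% for KLF2 and 7.49% for S1PR1 in other T cells, with S1PR1 at 1.78% in reaction 1. In macrophages it gave 1.21% and 1.04% for TCF7, 0.286% and 0% for LEF1 and 28.1% and 28.7% for IL7R, in NK cells 1.09% and 1.67% for IL7R, in B cells 30.6% and 45% for KLF2 and in monocytes of reaction 2 0.398% for S1PR1. Counts of a few UMIs limit S1PR1 in CD8 and CXCL13-positive T cells and in other T cells of reaction 1, and IL7R in B cells, and classes of under 10 cells per mouse were not tested.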
